A study of Oryctolagus cuniculus with 6 samples.

Results

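The genes MMP1, MMP3, MMP9, MMP12, MMP13 and MMP14, of the matrix metalloproteinase family, were followed through the first week of bone repair. They were taken as a set of 6 genes, chosen with earlier results of these data known. In all, 9334 named genes were tested (20209 features in all, of 23362 on the array). Each gene was matched to probes by symbol, accession or product name, and its brightest probe over the 6 arrays stands for it. New tissue was taken from circular parietal bone defects of 5 mm in New Zealand White rabbits, all male and 4 months old. The study used 24 animals with 4 defects each. In the HPD groups the defect held 0.2 g of HPD, which the series title calls human particulated dentin. In the control groups the defect was left unfilled. Each animal carried defects of both kinds, and the labels do not tie arrays to animals. Both groups were sampled on day 3, day 5 and day 7, with 1 array for each treatment and day and hence no replicates. Whether an array holds RNA pooled over animals is not stated, and each array is counted as 1 sample.

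Matrix metalloproteinases are zinc-dependent enzymes that cut proteins of the extracellular matrix. They are made as inactive proenzymes and are held in check by the tissue inhibitors of metalloproteinases (TIMPs). MMP1 and MMP13 are collagenases, which cut the triple helix of fibrillar collagen. MMP14 sits in the cell membrane, cuts collagen and activates the proenzyme of MMP2. MMP12, the macrophage elastase, degrades elastin, MMP3 (stromelysin 1) cuts many non-collagen matrix proteins and activates other proenzymes, and MMP9 (gelatinase B) cuts denatured collagen and is made by neutrophils and osteoclasts.

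The probes that carry the results are 60 bases long and are shown as the array files give them, 5′ to 3′, on rabbit build oryCun2. The MMP12 probe (A_04_P002451, transcript NM_001082771, chr1:113701478-113701537) is set beside the probes of the same stretch in MMP3 (A_04_P000566, chr1:113724285-113724344) and in MMP10, a second stromelysin (A_04_P102372, chr1:113786549-113786608), all on the plus strand, to show how far the elastase differs from its closest relatives on the array. Capitals mark the 32 positions at which all 3 hold the same base.
MMP12: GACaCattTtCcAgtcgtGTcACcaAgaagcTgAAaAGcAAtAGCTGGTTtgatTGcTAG
MMP3: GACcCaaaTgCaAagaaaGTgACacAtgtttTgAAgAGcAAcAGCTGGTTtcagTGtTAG
MMP10: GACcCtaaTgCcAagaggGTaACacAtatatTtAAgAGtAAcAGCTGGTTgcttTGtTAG
The MMP12 probe shared 37 of 60 bases with that of MMP3 and 36 of 60 with that of MMP10, while the MMP3 and MMP10 probes shared 48. No brightest probe of the 6 genes held a run of 20 bases found in a probe of another gene on the array.

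MMP1 (NM_001171139) has 3 probes in one stretch of 120 bases of its transcript, shown because they gave different answers. Capitals mark the 30 bases that the outer probes share with the middle one, which is the brightest and therefore stands for the gene. They lie on the plus strand at chr1:113751833-113751892, chr1:113751863-113751922 and chr1:113751893-113751952.
A_04_P054449: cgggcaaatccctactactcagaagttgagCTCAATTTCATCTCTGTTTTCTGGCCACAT
A_04_P054448: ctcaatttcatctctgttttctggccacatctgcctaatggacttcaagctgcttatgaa
A_04_P054447: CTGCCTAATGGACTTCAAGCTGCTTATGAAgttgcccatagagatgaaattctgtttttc
The brightest MMP13 probe (A_04_P002386, NM_001082037, chr1:113627423-113627482, plus strand) and the brightest MMP3 probe (A_04_P000568, NM_001082280, chr1:113723191-113723250, plus strand) are shown as the representatives of the other collagenase and of the stromelysin.
MMP13: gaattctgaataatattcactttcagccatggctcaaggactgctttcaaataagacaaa
MMP3: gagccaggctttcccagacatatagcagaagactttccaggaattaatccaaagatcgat
By these positions MMP13, MMP12, MMP3 and MMP1 lie in that order on chromosome 1. MMP14 (NM_001082793) was measured by 5 probes, each shifted by 1 base from the next, between 43085061 and 43085124 on chromosome 17, and MMP9 (NM_001082203) by 1 probe that the files list as unmapped. An oryCun2 gene annotation was not used here, so the exon or untranslated region of each probe is not given.

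All values are log2 of the processed intensity minus the 75th percentile of the array, so 0 is the level of that percentile. Differences are given as HPD minus control or, between days, as later minus earlier. Levels of different probes are not comparable with each other, and only differences are set side by side. The share of spots well above background ran from 78.1% to 86.4% over the arrays, no spot was saturated, and all 6 genes were well above background on every array. Both arrays of day 3 were on 1 slide and the 4 arrays of days 5 and 7 on another, each slide scanned once, so day 3 cannot be told apart from its slide, while the difference of HPD and control was always measured within a slide. In bulk tissue, fewer cells of a type and less RNA per cell cannot be told apart.

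The comparison of filled with empty defects asks which metalloproteinases differ with the graft. MMP12 stood at 5.70, 6.44 and 6.31 in HPD defects on days 3, 5 and 7, against 3.45, 5.22 and 4.84 in control defects. The lowest HPD array lay above the highest control array, so the groups did not overlap even across days. The share of all features that separate in this way was not counted. The difference was 4.75-fold, 2.34-fold and 2.78-fold on days 3, 5 and 7, and the mean over days was 1.65 ± 0.24 (SE, limma with day and treatment as terms, 6 arrays). The limma p adjusted over all features by Benjamini-Hochberg was 0.556. Within the slide of day 3 the difference was 2.25, and within the slide of days 5 and 7 it averaged 1.35. By the smallest of the 3 daily differences MMP12 was number 5 among 18133 features well above background on all arrays. The genes were chosen with results of these data known, so this rank describes MMP12 and is no test.

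**Figure D1:**
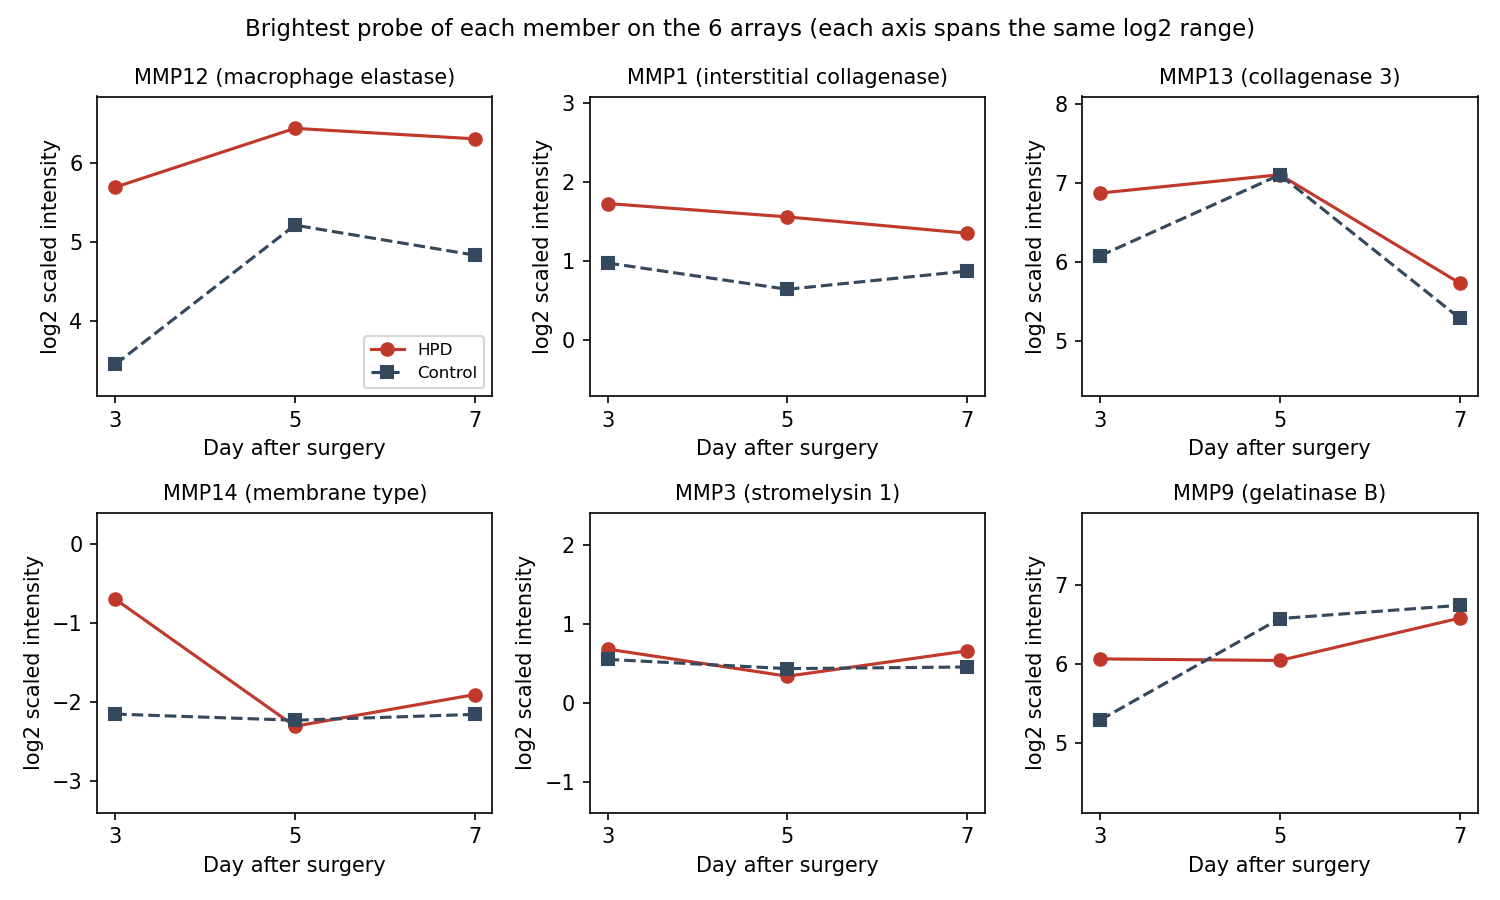
Level of each gene (log2 intensity scaled to the 75th percentile of the array, brightest probe) by day after surgery, with HPD defects as red circles and control defects as dark squares, 1 array per point. In MMP12 the 3 HPD points lie above all control points, whereas in MMP9 the lines cross between day 3 and day 5.

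The collagenases were also higher with HPD, by less. MMP1 stood at 1.72, 1.55 and 1.35 in HPD defects on days 3, 5 and 7, against 0.97, 0.64 and 0.87 in control defects. By this probe too every HPD array was above every control array, again without a count over all features. The level with HPD lay between 1.39-fold and 1.89-fold above the control of the same day. The mean was 0.72 ± 0.15 (SE, 6 arrays; limma adjusted p = 0.556). MMP13 stood at 6.88, 7.11 and 5.74 in HPD defects, against 6.08, 7.11 and 5.29 in control defects. Its arrays of day 5 were level, with a difference of 0.0022, and those of days 3 and 7 differed by 1.73-fold and 1.36-fold. The mean was 0.41 ± 0.20 (SE, 6 arrays; limma adjusted p = 0.560), and without day 3 it was 0.22.

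MMP14 differed on day 3. It stood at -0.70, -2.31 and -1.91 in HPD defects on days 3, 5 and 7, against -2.16, -2.23 and -2.16 in control defects. The 3 control arrays were nearly level, and the HPD array of day 3 was the one that stood apart, 2.75-fold above its control. The mean was 0.54 ± 0.34 (SE, 6 arrays; limma adjusted p = 0.587), and without day 3 it was 0.09. The other 4 probes of MMP14 gave day 3 differences of 1.39 to 1.66, but all 5 read nearly the same bases and are not independent. Osteoclast markers had a median difference of 1.16 on day 3 over 6 genes, with 5 of 6 higher, beside 13043 of 20209 features. Their part in the result was not tested. The osteoclast genes CTSK (cathepsin K) and ACP5 (tartrate-resistant acid phosphatase) stood at 6.35 and 3.37 in HPD defects of day 3, against 5.13 and 2.27 in control defects.

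MMP3 and MMP9 showed no common direction. MMP3 stood at 0.68, 0.34 and 0.66 in HPD defects on days 3, 5 and 7, against 0.55, 0.43 and 0.45 in control defects. The groups overlapped, and the mean was 0.08 ± 0.14 (SE, 6 arrays; limma adjusted p = 0.837). MMP9 stood at 6.07, 6.05 and 6.58 in HPD defects, against 5.29, 6.58 and 6.74 in control defects. It was 1.71-fold higher with HPD on day 3 and lower on days 5 and 7, at differences of -0.53 and -0.16, with a mean of 0.03 ± 0.29 (SE, 6 arrays; limma adjusted p = 0.976). Under a shift of the arrays to their medians the means of MMP3 and MMP9 were -0.054 and -0.11, and with the mean of all probes that of MMP3 was 0.52.

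**Figure D2:**
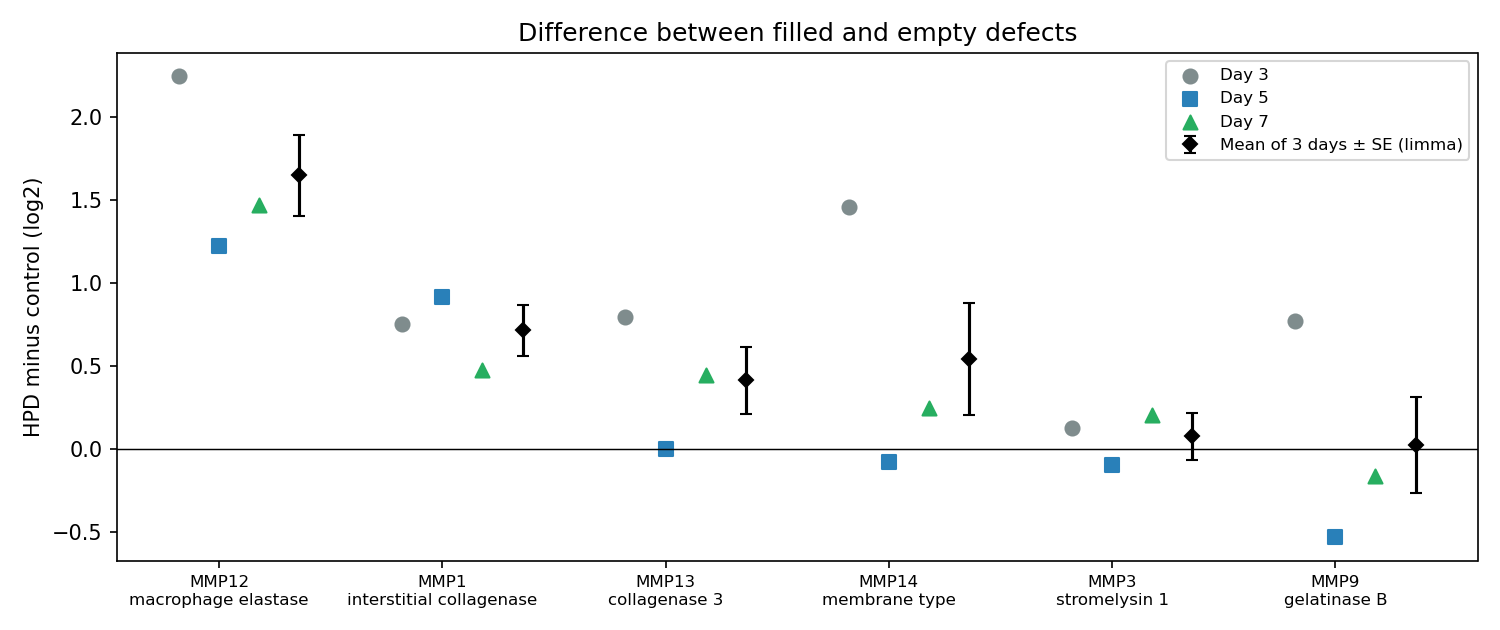
HPD minus control (log2) for each gene on days 3, 5 and 7 (grey circles, blue squares, green triangles) and the mean over days with its standard error from limma (black diamonds). MMP12 lies at 1.23 or above on every day, and the collagenases MMP1 and MMP13 lie between 0.0022 and 0.92. By the brightest probes drawn here, MMP3, MMP9 and MMP14 differ in sign between days.

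None of the 6 genes passed the adjusted test for the HPD effect, and limma called 0 of 20209 features (0.0%). At an unadjusted p below 0.05, 2 of 6 genes were higher (MMP12 and MMP1), where 7.16% of all features were. None was lower at that threshold, beside 1.4%. That balance of 1446 features higher and 283 lower depended on the scaling, and was 633 and 1069 with a median shift and 878 and 551 with quantile normalization. On day 3, 2 of 6 were at least 2-fold higher (MMP12 and MMP14) beside 3.59% of features well above background on both arrays. On days 5 and 7 only MMP12 of the 6 was, beside 4.87% and 1.64%. None was at least 2-fold lower on day 3, 5 or 7, beside 2.91%, 1.69% and 0.84% of features. MMP12 was at least 2-fold higher on all 3 days, as 18 of 18133 features were (0.0993%). MMP1, MMP12 and MMP13 were higher on all 3 days, which held for 27.6% of features. MMP13 counts there by its 0.0022 on day 5, which was -0.12 with a median shift. The median HPD effect of the 6 was 0.48, beside 0.09 over all features tested.

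The elastase was set against the collagenases by subtracting the mean of the MMP1 and MMP13 differences from the MMP12 difference on each day. The result was 1.47 on day 3, 0.77 on day 5 and 1.01 on day 7, a mean of 1.08 ± 0.36 (SD over 3 days). MMP12 thus exceeded the collagenases on 3 of 3 days by the brightest probes. No test was made of it, since the genes were chosen with results of these data known. Against MMP13 alone it was 1.45, 1.22 and 1.03, and against MMP1 alone 1.49, 0.31 and 0.99.

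The day 5 part of that contrast depended on which MMP1 probe was read. The outer probes A_04_P054447 and A_04_P054449 were 5.61-fold and 5.37-fold higher with HPD on day 5, where the middle probe gave 1.89-fold. They stood at 0.51 and 0.17 in the HPD defect of day 5, against -1.98 and -2.26 in the control defect. By the outer probes the HPD array of day 7, at -2.64 and -2.61, lay below the control array of day 3, at -2.10 and -2.46, so the groups overlapped. On days 3 and 7 the differences of the 3 probes lay closer together, at 0.75 to 0.98 and 0.37 to 0.61. The outer probes averaged 2.92 and 3.16 below the middle one in log2 although each shares 30 of its 60 bases, and their values varied more over the arrays, with a standard deviation of 1.26 and 1.19 against 0.42. Their mean HPD effects were 1.25 ± 0.45 and 1.34 ± 0.39 (SE, 6 arrays; limma over all probes, adjusted p = 0.575 each). With them in place of the middle probe, the elastase minus the collagenases was -0.0029 on day 5, 1.38 on day 3 and 1.01 on day 7. On day 5 the dimmer MMP1 probes therefore differed between treatments by more than MMP12 did.

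MMP3 showed the same kind of split. Its brightest probe varied little, with a standard deviation of 0.14 over the arrays. The other probes, A_04_P000566 and A_04_P000567, averaged 2.62 and 2.72 lower and were 3.13-fold and 2.38-fold higher with HPD on day 5. On day 3 they differed by 0.79 and 1.08, and on day 7 by -0.34 and 0.0099. Under normexp background correction these dimmer probes kept their direction on day 5, at 1.02 and 0.69 for MMP3 and 1.82 (A_04_P054447) and 1.69 (A_04_P054449) for MMP1. The 3 probes of MMP13 gave mean differences of 0.41, 0.72 and 0.72, higher on all 3 days in each. MMP12 and MMP9 had 1 probe each, so no second reading was available.

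**Figure D3:**
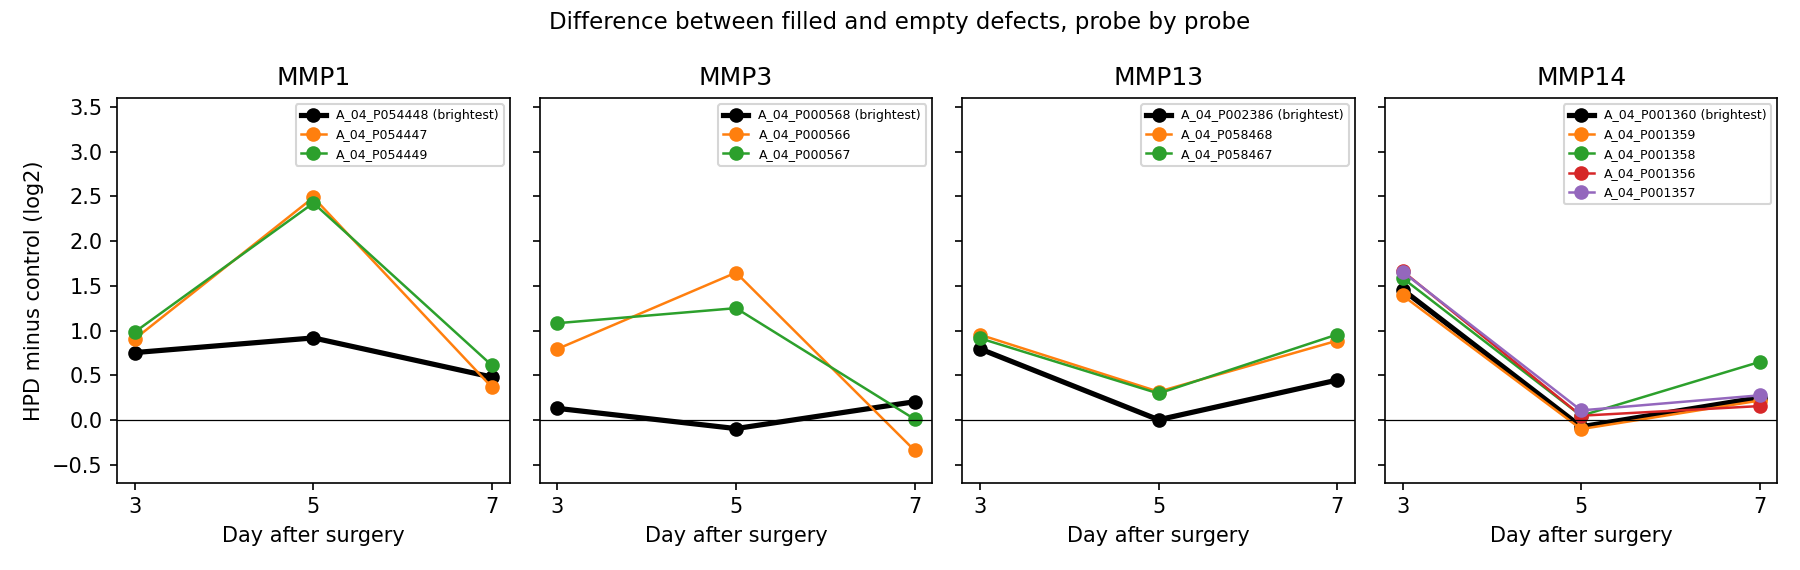
HPD minus control (log2) by day for every probe of MMP1, MMP3, MMP13 and MMP14, with the brightest probe of each gene in black. On day 5 the outer MMP1 probes lie at 2.43 and 2.49 and the brightest at 0.92, and the dimmer MMP3 probes lie at 1.25 and 1.65 and the brightest at -0.10.

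Over time, MMP13 and MMP12 differed most among the 6 by the brightest probes. MMP13, averaged over treatments, stood at 6.48, 7.11 and 5.51 on days 3, 5 and 7, highest on day 5 and lowest on day 7 in both treatments. From day 5 to day 7 the difference was -1.37 in HPD defects and -1.82 in control defects, a mean of -1.59 ± 0.24 (SE, 6 arrays; limma adjusted p = 0.514), within 1 slide. MMP12 stood at 4.57, 5.83 and 5.57, and day 7 minus day 3 was 1.0 ± 0.30 (SE, 6 arrays; limma adjusted p = 0.185), made up of 0.61 in HPD and 1.39 in control defects. MMP9 stood at 5.68, 6.31 and 6.66, with a difference between day 7 and day 3 of 0.52 in HPD and 1.45 in control defects, and a mean of 0.98 ± 0.35 (SE, 6 arrays; limma adjusted p = 0.231). MMP1, MMP3 and MMP14 differed between day 7 and day 3 by -0.24, -0.06 and -0.61 on average. With the mean of all probes, that difference was -0.79 for MMP1 and -0.76 for MMP3. The outer MMP1 probes A_04_P054447 and A_04_P054449 differed by -2.09 and -1.87 for day 7 minus day 5. No member passed the test for any pair of days. At an unadjusted p below 0.05, MMP12 was higher for day 5 minus day 3 and MMP12 and MMP9 for day 7 minus day 3, beside 6.31% and 10.8% of features. MMP13 was lower for day 7 minus day 5 and for day 7 minus day 3, beside 3.32% and 10.1%, and no member was lower for day 5 minus day 3, beside 10.1%. For day 5 minus day 3 the 1275 features higher and 2037 lower became 1931 and 1450 with a median shift and 2546 and 1220 with normexp. The share of features called after adjustment was 0.00495% for day 5 minus day 3, 0.0% for day 7 minus day 5 and 0.00495% for day 7 minus day 3. With normexp, MMP13 passed for day 7 minus day 3 (difference -1.09, adjusted p = 0.0281), when 1059 features did.

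Of 17 further metalloproteinase genes listed, 14 had probes and 11 were well above background on at least 3 arrays. None was called for the HPD effect. In all 7 were higher and 4 lower with HPD, at a median of 0.21, with 3 higher on all 3 days, where 12665 of 20209 features tested were higher. The largest was MMP28 (epilysin) at 0.69 ± 0.31, of which the day 3 difference was 1.51, followed by MMP7 (matrilysin) at 0.43 ± 0.23. MMP19 stood at 0.40 ± 0.13, with 0.48, 0.42 and 0.29 on the 3 days (limma SE, 6 arrays each). With normexp the differences on days 3, 5 and 7 were 0.64, -0.04 and 0.10 for MMP28. They were 0.46, 0.15 and -0.09 for MMP7 and 0.48, 0.29 and 0.21 for MMP19. The order of these genes therefore depended on the background correction. MMP2 (gelatinase A), whose proenzyme MMP14 activates, stood at -0.08 ± 0.28, with the day 5 difference at -0.79. Between day 3 and day 7, MMP7 and MMP19 had the largest negative differences, -1.73 and -1.60, and MMP2 and MMP16 the largest positive ones, 1.19 and 1.17 (limma adjusted p = 0.118, 0.116, 0.178 and 0.170). MMP20 (enamelysin) and MMP21 were not well above background on any array.

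Of the 6 inhibitor genes listed, TIMP1, TIMP3, TIMP4 and RECK were measured. TIMP1 stood at 5.21, 5.14 and 4.76 in HPD defects on days 3, 5 and 7, against 5.03, 4.67 and 4.28 in control defects. It was higher with HPD on each day, by 0.18 to 0.47 in log2, less than MMP12 on the same days, with a mean of 0.37 ± 0.14 (SE, 6 arrays; limma adjusted p = 0.556). TIMP3 and TIMP4 stood at 0.05 ± 0.18 and -0.24 ± 0.20, and RECK was well above background on 3 arrays.

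**Figure D4:**
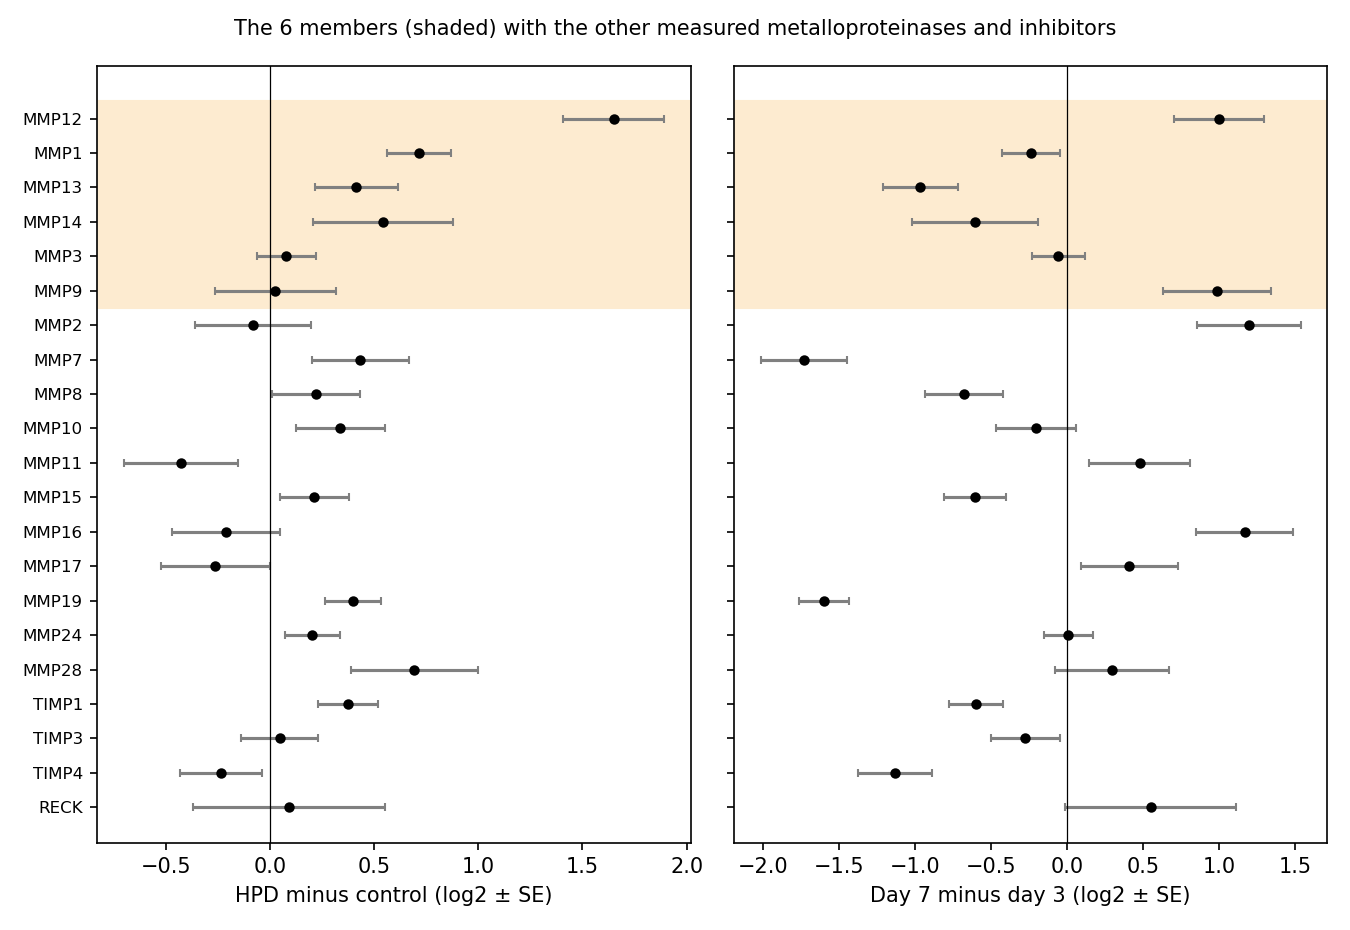
HPD minus control (left) and day 7 minus day 3 (right), in log2 with standard errors from limma over 6 arrays, for the 6 genes (shaded), the other metalloproteinases tested and the inhibitors. MMP12 has the highest HPD effect, 1.65, and MMP7 the lowest day 7 minus day 3 difference, -1.73.

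In the plasminogen system, which activates several proenzymes, 7 of 11 listed genes were tested and 0 were called, with 5 higher and 2 lower with HPD. Of all 20209 features tested, 12665 were higher with HPD and 5330 were higher on all 3 days. The protease inhibitor genes SERPINE2 and SERPINB2 stood at 0.61 ± 0.15 and 0.44 ± 0.15, higher on all 3 days, and the urokinase gene PLAU at -0.25 ± 0.26. Genes known to induce metalloproteinases, cytokines and the AP-1 transcription factors, had a median HPD effect of 0.33 with 10 of 11 higher, 7 on all 3 days and 0 called, beside 0.09 for all features. The largest were FOS at 1.54 ± 0.40, IL1B at 0.96 ± 0.31 and TNF at 0.89 ± 0.13. Of the 11 genes of this list, 10, 9 and 9 were higher with HPD on days 3, 5 and 7. Over all 20209 features tested the counts were 13043, 11814 and 11465. FOS and IL1B differed by 2.62 and 1.70 on day 5, and IL6 and IL1A by -0.30 and -0.13. A link of these genes to MMP1 was not tested. Among the matrix substrates, 7 of 17 were higher and 10 lower with HPD, at a median of -0.07. SPP1 (osteopontin) and FN1 (fibronectin) stood at 0.89 ± 0.33 and 0.80 ± 0.16, and the collagen gene COL3A1 at -0.38 ± 0.24. From day 3 to day 7, 16 of 17 substrates were higher, beside 9878 of 20209 features, and none was called. COL3A1 stood at 1.92 ± 0.30 for those days. ELN, the elastin gene, was not matched to a probe.

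Markers of the cells that could supply these enzymes were read beside them. All 11 measured macrophage markers of 15 listed had a positive mean difference, at a median of 0.46, and 0 were called. On all 3 days 4 of 11 were higher, beside 5330 of 20209 features, and 12665 features had a positive mean difference. The median over all features was 0.09, and -0.04 with a median shift. The scavenger receptor gene MSR1 stood at 1.02 ± 0.26, CD14, the endotoxin co-receptor, at 0.79 ± 0.18, and CD68, a general macrophage marker, at 0.50 ± 0.15. The summed scaled intensity of the macrophage list ran from 32.8 to 62.5 in HPD and from 23.5 to 44.2 in control defects. Its median difference was 0.27, 0.84 and 0.27 on days 3, 5 and 7, whereas MMP12 differed by 2.25, 1.23 and 1.47. Between day 3 and day 7 the list went the other way from MMP12, with 11 of 11 lower at a median of -0.77. Of all 20209 features, 10331 were lower. Neutrophil markers (8 of 12 measured) had medians of -1.36, 0.71 and 0.73 on days 3, 5 and 7, and their summed intensity ran from 51.4 to 656 in HPD and from 18.2 to 1438 in control defects. MMP9 differed in the opposite direction from that list on each day, at 0.77, -0.53 and -0.16. The osteoclast list had medians of 1.16, -0.13 and 0.24 on those days. These had the sign of MMP9 on days 3 and 5 and the opposite sign on day 7. The marker ACP5 of that list differed by 1.1, -0.62 and -0.30. The measured macrophage and neutrophil markers were above background on all arrays. The part of macrophages, neutrophils and osteoclasts in the results was not tested.

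**Figure D5:**
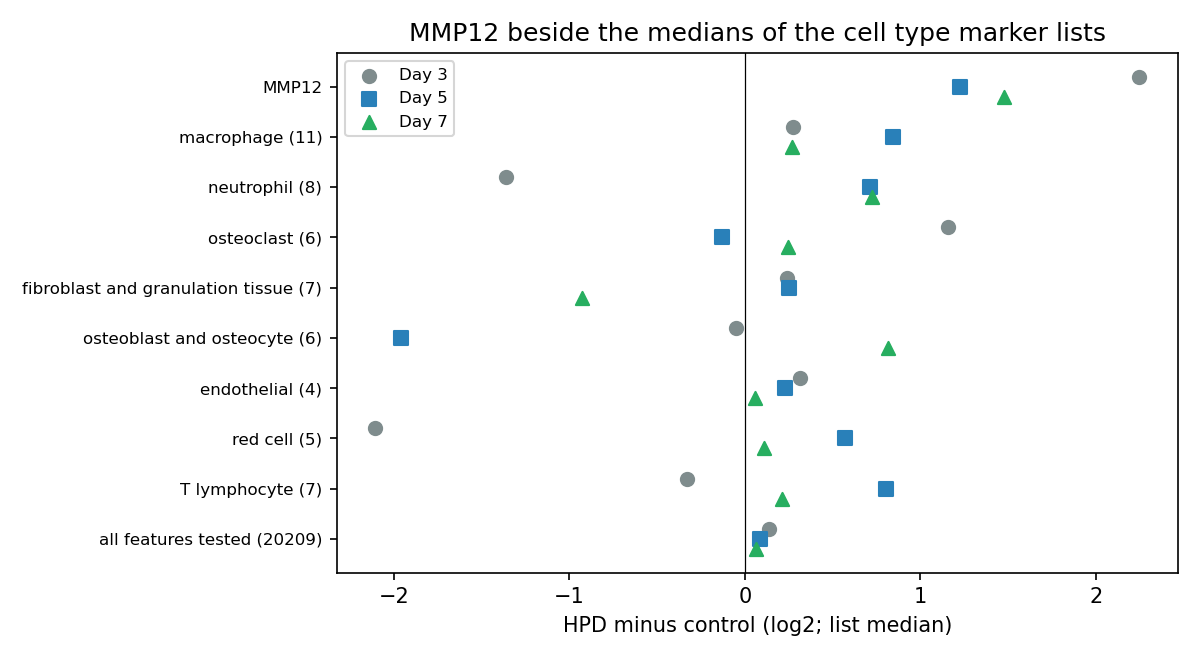
HPD minus control (log2) on each day for MMP12 and, as medians, for 8 cell type marker lists and all features, with the number of genes or features tested in brackets. MMP12 lies to the right of the median of every list drawn on each day, and neutrophil and red cell lists lie far below 0 on day 3.

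Genes with patterns most like each of the 6 were sought by Pearson's r over the 6 arrays among the 1328 named genes that were detected on every array with a standard deviation of at least 0.5. For MMP12 these were ATF3, a stress-induced transcription factor (r = 0.954), LGALS3, which encodes galectin-3 (0.949), GABRB2 (0.940), CSN1S2 (0.931) and DDAH1 (0.928). LGALS3 stood at 6.42, 6.75 and 6.59 in HPD defects on days 3, 5 and 7, against 5.02, 5.57 and 5.48 in control defects. For MMP13 they were MMP7 (0.923), ANXA4 (0.919), NTS (0.887), IL1B (0.881) and IDO1 (0.870). For MMP1 the closest was KMO, an enzyme of tryptophan breakdown (0.987), for MMP9 BEND6 (0.986), for MMP14 MED13L (0.971) and for MMP3 GLIS2 (0.960). Over 6 arrays that share days and slides, such values describe these arrays alone. Among the 6 genes themselves r ran from -0.27 (MMP3 and MMP13) to 0.74 (MMP3 and MMP14), with 0.32 between MMP12 and MMP13 and 0.59 between MMP12 and MMP1. The values of MMP3, here and with GLIS2, rest on its brightest probe. That probe had a standard deviation of 0.14 over the arrays, against 0.80 and 0.95 for its other probes.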

How the data were processed

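In all 6 single-dye arrays were read, 1 per treatment and day. The deposited spot intensity is linear. Per the file headers, Agilent Feature Extraction 10.5.1.1 read an array designed against oryCun2, with spatial detrending and background subtraction within each array. Per the labels' protocols 0.2 μg of RNA was amplified and labelled with Cy3. Here log2 of the processed intensity minus the 75th percentile over non-control probes was taken. Spots with outlier marks were left out, which removed 41 of 43603 probes, and spots of a probe were averaged. A symbol was found for 22697 probes from the annotation columns of the files and a table of RefSeq genes (assembly mOryCun1.1, used for names only). A gene is read by its brightest probe. Features well above background on at least 3 arrays were tested (20209 of 23362) with limma 3.58.1 in R 4.3.3, with day and treatment as additive terms and Benjamini-Hochberg adjustment at 0.05. The residual has 2 degrees of freedom (2.48 from the prior) and holds both array noise and variation of the HPD effect between days. Nothing says that arrays came from separate animals, so p-values reflect no more than array-to-array spread, which may be technical, and the number of arrays limits the precision. The fit was also run on simulated data with noise set below that of these arrays, which gives neither its power nor its error rate here. Tables were made with pandas 2.3.3 in Python 3.11.15 and plots with matplotlib 3.10.9.

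The members and the gene lists were chosen with earlier results of these data known. Named genes are the 6 members, any measured metalloproteinase, inhibitor or activation gene, the 4 of each other list with the largest HPD or day 7 minus day 3 difference, and the 5 most like each member. CD68 was named after its values were seen. The alternatives were quantile normalization, a median shift, normexp (offset 50), other filters on dim features, the mean of a gene's probes, no day block, 1 day left out and each slide alone. Reading each probe by itself was added after seeing the data.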

Additional observations from a re-analysis of the deposited data

Results flagged for a closer look

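In all, 5 results went in opposite directions in the groups compared. With 1 array per treatment and day none of these differences was tested. For MMP9, HPD minus control was 0.77 on day 3 and -0.53 on day 5, a gap of 1.31. The same gap appears as its course from day 3 to day 5, -0.020 in HPD defects and 1.29 in control defects, which differ by -1.31. For MMP14, HPD minus control was 1.46 on day 3 and -0.08 on day 5, a gap of 1.53. With the mean of all MMP14 probes the day 5 difference was 0.0048, so its sign on that day depended on the probe. For MMP3, HPD minus control was 0.20 on day 7 and -0.10 on day 5, a gap of 0.30. For MMP1, day 7 minus day 5 was -0.21 in HPD defects and 0.23 in control defects, which differ by -0.44. The gaps of MMP3 and MMP1 were found with the brightest probes, from which their other probes differed.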

How the results depend on the processing

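The count of features called for the HPD effect was 0 under every alternative run, with 901 (no day block, that is no replicate block) to 1844 features at an unadjusted p below 0.05 and a smallest adjusted p of 0.0791 (normexp). MMP12, MMP1, MMP13 and MMP14 kept a positive HPD effect in all of them, though the filters and leaving out the day block cannot change the effect itself. MMP12 ran from 1.35 (without day 3) to 1.86 (without day 5), with adjusted p from 0.150 (normexp) to 0.874 (no day block). The labels carry no replicate numbers, and the day block of the fit sets the HPD and control arrays of a day against each other. The HPD effect of MMP9 ran from -0.35 without day 3 to 0.31 without day 5. The first is also the fit within slide 2, and the effect was -0.11 with a median shift, which gave -0.054 for MMP3.

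The count called for day 5 minus day 3 was 0 with quantile normalization, without the filter on dim features and without day 7, and 319 with normexp, in place of 1. For day 7 minus day 5 it was 2 with normexp in place of 0. For day 7 minus day 3 it was 0 with quantile normalization, without the filter and without day 5, 5 with features above background on all 6 arrays, and 1059 with normexp, in place of 1; the cause was not tested. Averaging all probes turned day 5 minus day 3 to 0.53 for MMP1 and 0.15 for MMP3, and day 7 minus day 5 to -1.32 and -0.91. That last contrast was -0.064 (median shift), -0.016 (normexp) and -0.21 (HPD arrays alone) for MMP1, where it was 0.01, and the HPD arrays alone gave -0.020 for MMP9 from day 3 to day 5.

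The elastase minus the collagenases had a mean of 1.47 on slide 1 (day 3 alone), 0.89 to 1.24 with a day left out, 0.79 with the mean of all probes or with the dimmer MMP1 probes, and 1.09 with MMP14 added. Of single-day values of members, 122 stayed within 1 SD of the daily differences and 16 moved further, among them MMP1 on day 5 (1.94 with the mean of all probes). Part of the 122 could not move. The filters on dim features leave every single-day value as it was, as does the mean of all probes for MMP9 and MMP12. Signal over background limits dim probes: the lowest level well above background was -4.98 and -4.56 on the HPD arrays of days 5 and 7, against -5.53 and -5.34 on the control arrays.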

Other observations

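MMP8, the neutrophil collagenase, and its neighbour MMP27, which both lie beyond MMP1 on chromosome 1, had lower readings after day 3. MMP27 was well above background on day 3 alone, at -3.08 in the HPD defect and -0.75 in the control defect by its brightest probe. By that probe it was at least 3.74-fold lower on day 5 than on day 3 in HPD defects. In control defects it was at least 27.4-fold lower. By the other probes these bounds were 1.43-fold and 1.83-fold in HPD defects and 16.2-fold and 18.3-fold in control defects. Each bound is limited by the lowest level well above background on its array, so treatments cannot be compared by it. The 3 MMP27 probes differed between treatments on day 3 by -2.33 to -2.95. The myeloperoxidase gene MPO, a neutrophil granule marker, differed by -2.74 on that day. The neutrophil list had a median of -1.36 then, with 1 of 8 genes higher, beside 13043 of 20209 features. A link of MMP27 to neutrophils was not tested.

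The probes of MMP8 disagreed in the way those of MMP1 and MMP3 did. The brightest, A_04_P062363, stood at -0.41, -0.49 and -0.82 in HPD defects on days 3, 5 and 7, against -0.16, -1.11 and -1.11 in control defects. The probe A_04_P062364, which overlaps it, stood at -2.49, -3.76 and -3.97 in HPD defects, against -1.38, -5.05 and -4.03 in control defects. The 2 others were not well above background after day 3. On day 5, A_04_P062362 was at least 3.44-fold lower than on day 3 in HPD defects and at least 20.6-fold lower in control defects. For A_04_P062365 these bounds were 2.83-fold and 14.4-fold. In MMP1, MMP3 and MMP8 the brightest probe was the one that varied least over the arrays. Why it did was not tested.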
